A study of Drosophila melanogaster with 12 samples.

Results

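RNA was compared between prepupal and larval wings of Drosophila melanogaster in which the ecdysone receptor gene EcR was targeted by RNAi. The comparison set 2 prepupal libraries, at +6 h relative to puparium formation, against 2 larval libraries, at -6 h, and it asked what still changes between these stages when EcR is reduced. It took every gene whose normalized count averaged 10 or more across the 8 RNA libraries, which kept 7775 of the 15240 genes listed. A normalized count is a read count divided by a size factor of its library. The series holds 12 samples, of which these 4, and 4 wild-type RNA libraries at the same stages for reference, were used. The 4 CUT&RUN samples were not used here.

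All RNA came from wings of females raised at 25 degrees. Larval wings were taken at the wandering stage and prepupal wings from animals staged at the white prepupa. EcR-RNAi animals were yw and carried Vg-GAL4, UAS-Flp and Tub>>CD2>>GAL4, with UAS-GFP over UAS-EcR-RNAi[104], a transgene that encodes a hairpin against EcR. In this type of system a GAL4 under vestigial control switches on the Flp recombinase, which removes the CD2 cassette so that a tubulin promoter then drives GAL4 in that cell and its descendants. Wild-type animals are given as +/+ throughout, so what EcR loss does and what the strain background, the drivers or the GFP do cannot be told apart. The labels do not name the cells of the wing in which the hairpin was active, and the reads do not separate cells with it from cells without it. Separate animals or cultures behind the replicates are not stated in the labels, so a p-value measures only how far these libraries spread, and that spread may be technical.

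Ecdysone is the steroid hormone that times moulting and metamorphosis in insects. It binds the nuclear receptor EcR, which pairs with Usp on DNA, and a pulse of hormone at the end of larval life starts a cascade of early transcription factors followed by late target genes. Without hormone the same receptor can repress some of its targets, so loss of EcR can raise as well as lower a gene. In the wing the change from larva to prepupa turns a growing, folded disc into an everted bilayer whose cells stop dividing and begin to secrete a pupal cuticle.

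EcR was at 1634 and 1307 normalized counts in larvae and 2201 and 2081 in prepupae in EcR-RNAi and at 2194 and 1924 in larvae and 5764 and 6852 in prepupae in wild type. Both EcR-RNAi libraries lay below both wild-type libraries at each stage. In EcR-RNAi the gene rose by 0.55 ± 0.14 (log2 fold change ± SE, limma adjusted p = 0.0196), and this call ended at an adjusted p of 0.0908 without replicate 2 at -6 h, 0.152 without replicate 1 and 0.0963 without replicate 2 at +6 h. Reads of the hairpin itself cannot be told apart from EcR reads in these counts. EcR-RNAi libraries held 7020395 and 7971088 reads at -6 h and 6444939 and 7845794 at +6 h. Replicates correlated across genes with r = 0.982 at -6 h and r = 0.991 at +6 h, and differed by more than sampling noise at both stages (chi-square per degree of freedom 32.1 and 6.83). The summed level of 5 genes of wing identity, vg, nub, ap, sd and rn, was 16827 and 12625 at -6 h and 15124 and 13535 at +6 h in EcR-RNAi, so the stages overlapped, and all 8 libraries expressed these genes.

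In EcR-RNAi wings 943 genes (12.1%) were higher at +6 h and 302 (3.88%) were lower, each at a limma adjusted p under 0.05. Increases were also the larger changes. Of the genes higher at +6 h, 561 changed more than 2-fold, 290 more than 4-fold and 125 more than 8-fold, while of those lower the numbers were 53, 25 and 15. The median log2 fold change was 1.25 among the higher genes, -0.55 among the lower genes and -0.0015 among all 7775. The same comparison in wild type called 2259 genes (29.1%) higher and 2075 (26.7%) lower. Its fold changes share no library with those of EcR-RNAi, but both comparisons were fitted in the same model with a joint spread. The count of lower genes rests on the scaling: upper-quartile scaling moved the median of all genes by -0.134 and called 874 lower, quantile normalization moved it by -0.146 and called 945 lower, and increases made up 75.7% of the calls as deposited but 46.9% and 45.3% under these. Without replicate 1 or replicate 2 at +6 h, 521 and 506 genes were higher and 99 and 96 were lower. Without replicate 1 or 2 at -6 h, 967 and 862 were higher and 161 and 207 were lower. In the authors' deposited table of their own comparison 853 of the same genes are called higher and 157 lower, of which 782 and 151 were also called here. As in any bulk library, fewer cells of a kind and less RNA per cell cannot be told apart in these values.

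Most of what changed in EcR-RNAi wings also changed in wild type in the same direction. Many of these genes, though not all, responded less far in EcR-RNAi by the interaction. Of the 943 higher genes, 866 (91.8%) were also higher in wild type, 70 (7.42%) were not called there and 7 (0.742%) were lower there. Of the 302 lower genes, 256 (84.8%) were also lower in wild type, 38 (12.6%) were not called and 8 (2.65%) were higher there. The interaction of genotype and stage, the EcR-RNAi response minus the wild-type response, tests whether the responses differ, and it called 905 genes (11.6%) above 0 and 1197 (15.4%) below 0. By this test 551 of the 866 genes that were higher in both genotypes rose less far in EcR-RNAi, 4 rose further, and for 311 the difference was not called. Of the 256 lower in both, 146 fell less far, 2 fell further, and for 108 it was not called. Read from the wild-type side, 38.3% of its 2259 higher genes and 12.3% of its 2075 lower genes were called in the same direction in EcR-RNAi.

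**Figure D1:**
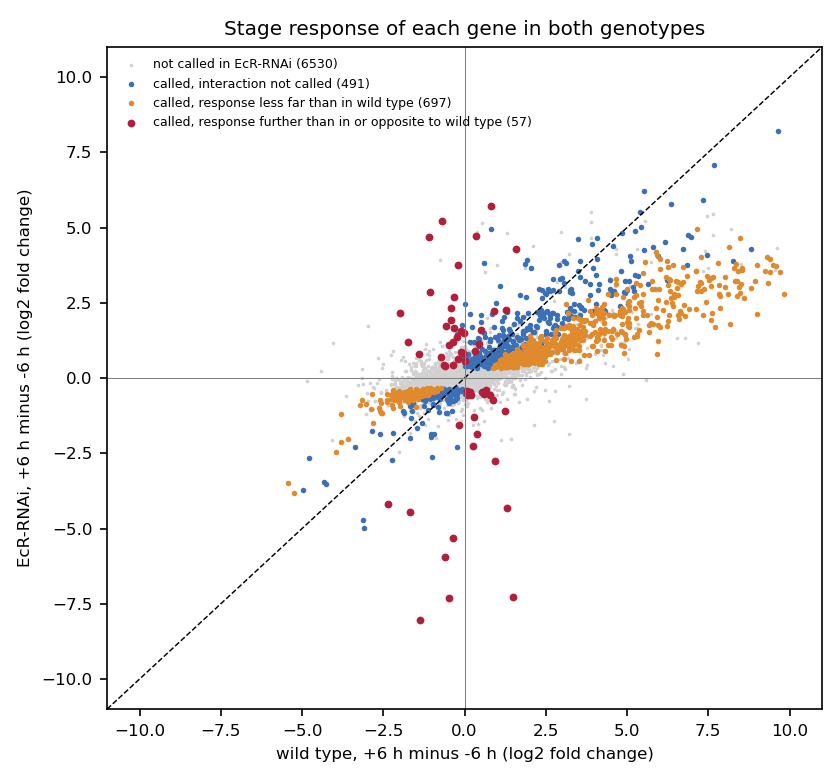
Log2 fold change from -6 h to +6 h of 7775 genes in wild type (horizontal axis) and EcR-RNAi (vertical axis), with a dashed line where both are equal. Genes called in EcR-RNAi lie mostly between the dashed line and 0, where 697 responded less far than in wild type, while 57 responded further or the opposite way and for 491 the interaction was not called.

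Genes that rose further in wild type also rose further in EcR-RNAi, and in each size class the EcR-RNAi median was the smaller one. The genes were grouped by the size of their wild-type fold change, which rests on the wild-type libraries alone. Only genes called in wild type were grouped, and that call used a spread fitted jointly with the EcR-RNAi libraries. The minimum mean was also taken over the libraries of both genotypes. The EcR-RNAi values, including the percentages called, are therefore not fully free of that grouping. The classes were also chosen on the wild-type fold changes themselves, which favours wild-type medians further from 0. A smaller EcR-RNAi median is thus partly built in, and the medians are a description and not a test. The 191 genes that rose in wild type by a log2 fold change of 5 or more, with a median of 6.46, had a median of 3.06 in EcR-RNAi, and 86.9% of them were called higher. The 258 genes between 3 and 5 had medians of 3.81 in wild type and 1.67 in EcR-RNAi, and 79.5% were called higher. Among the 574 genes between 1 and 2 the medians were 1.38 and 0.48, and 44.9% were called. On the falling side the 741 genes between -1 and -2 had a median of -1.35 in wild type and -0.32 in EcR-RNAi, and 16.9% were called lower. Of these 741 genes 90.8% still had a negative fold change. The 27 genes that fell furthest in wild type, by 3 or more, had medians of -3.64 and -1.20, and 59.3% were called lower.

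**Figure D2:**
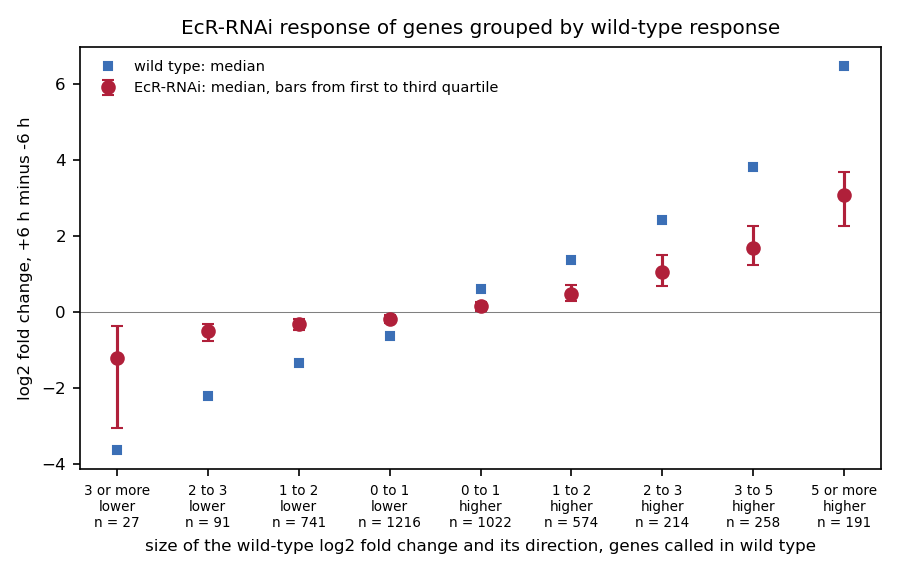
Median log2 fold change from -6 h to +6 h in wild type (squares) and EcR-RNAi (circles, with bars from the first to the third quartile) for genes called in wild type, grouped by the size and direction of the wild-type change. The EcR-RNAi median rises with the wild-type class from 0.14 to 3.06 among increases and stays between -0.19 and -1.20 among decreases.

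A smaller response can come from a higher start, a lower end, or both, and both were seen. Of the 866 genes that rose in both genotypes, 478 (55.2%) had both EcR-RNAi libraries above both wild-type libraries at -6 h, against 29.9% of all genes. At +6 h 669 of them (77.3%) had both EcR-RNAi libraries below both wild-type libraries, against 36.9% of all genes. Both held for 347 genes (40.1%), against 750 of all genes (9.65%), and 2 genes had the reverse pattern. The 256 genes that fell in both genotypes mirrored this: 77 (30.1%) started below and ended above wild type, against 562 of all genes (7.23%), and 206 (80.5%) ended above wild type, against 36.6% of all genes. The genes higher in both and the genes lower in both were picked partly on these levels, so the counts describe them and are not a test.

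Counts in the gene groups that follow stand beside 12.1% higher and 3.88% lower among all 7775 genes in EcR-RNAi. Of 14 nuclear receptors of the ecdysone cascade tested, counting EcR and its partner, 9 rose and the other 5 were not called. Their median log2 fold change was 0.44 (7 rose and 1 fell in wild type). The number that rose was 8 by edgeR, 6 by DESeq2, 6 under upper-quartile scaling and 4 under quantile normalization. Hr46, also known as DHR3, which acts in the delay between the larval and the prepupal response, was at 1159 and 961 normalized counts in larvae and 5287 and 4675 in prepupae in EcR-RNAi. It was at 2854 and 2589 in larvae and 5197 and 5037 in prepupae in wild type. The EcR-RNAi libraries thus lay below wild type in the larva and reached its level in the prepupa. Hr46 rose by 2.23 ± 0.13 (adjusted p = 9.74e-07), further than in wild type (interaction 1.32 ± 0.18, adjusted p = 0.000307). Hr4, a repressor acting in the same step, was at 3868 and 3286 in larvae and 6722 and 6528 in prepupae and rose by 0.89 ± 0.13 (adjusted p = 0.000593). Its interaction was 0.03 ± 0.18 (adjusted p = 0.917). ftz-f1, the competence factor of the mid-prepupal stage, was at 623 and 464 in larvae and 2278 and 2069 in prepupae and rose by 2.01 ± 0.29 (adjusted p = 0.00569), against 163 and 106 in larvae and 6359 and 4085 in prepupae in wild type. It started above wild type and ended below it. Smaller increases included those of Eip75B (0.56 ± 0.12, adjusted p = 0.0105), Hnf4 (0.46 ± 0.10, adjusted p = 0.0104) and Hr39 (0.41 ± 0.12, adjusted p = 0.0443). Of these Hr39 fell in wild type. The count of 9 fell to 3 without replicate 1 and to 3 without replicate 2 at +6 h, and to 6 without replicate 2 at -6 h. The calls of Eip75B, Hnf4 and Hr39 ended when either library at +6 h was left out, at 0.108 and 0.0635 for Eip75B, 0.0645 and 0.0813 for Hnf4 and 0.208 and 0.183 for Hr39, and that of Hr39 also ended at 0.179 without replicate 2 at -6 h.

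Of 6 genes that make, break down or transport ecdysone, 4 rose and the other 2 were not called, with a median of 1.45. Cyp18a1, the hydroxylase that inactivates ecdysone, was at 88.7 and 189 normalized counts in larvae and 1076 and 1147 in prepupae. Both prepupal libraries lay far above both larval ones, and the rise was 3.09 ± 0.34 (adjusted p = 0.00175). In wild type it was at 26.1 and 30.7 in larvae and 2483 and 2005 in prepupae. E23, an ABC transporter known to dampen ecdysone signalling, was at 686 and 796 in larvae and 1956 and 2043 in prepupae and rose by 1.43 ± 0.11 (adjusted p = 8.79e-06), against a rise of 3.69 ± 0.11 in wild type. The other 2 genes that rose were Npc2a, which carries sterol, and sad, a hydroxylase of ecdysone synthesis. The calls of both ended without replicates 1 and 2 at +6 h, at 0.119 and 0.0955 for Npc2a and 0.088 and 0.142 for sad, and without replicate 1 at -6 h for Npc2a (0.0734) and replicate 2 for sad (0.111). Without replicate 1 and without replicate 2 at +6 h the count was 2.

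Among 19 other transcription factors and cofactors of the cascade, 3 (15.8%) rose, 2 (10.5%) fell and 14 were not called. Of all genes 12.1% rose and 3.88% fell. The median of the 19 was 0.15 and turned to -0.16 under quantile normalization. Eip93F, which specifies adult fate and reshapes the chromatin of the pupal wing, was at 59.5 and 41.8 normalized counts in larvae and 421 and 277 in prepupae in EcR-RNAi and at 19.4 and 11.5 in larvae and 279 and 188 in prepupae in wild type. The prepupal libraries lay above the larval ones in both genotypes. Eip93F rose by 2.75 ± 0.32 in EcR-RNAi (adjusted p = 0.000413) and by 3.85 ± 0.32 in wild type, with an interaction of -1.10 ± 0.45 (adjusted p = 0.109). ken, a zinc finger repressor, was at 1479.6 and 1905 in larvae and 4478 and 4546 in prepupae and rose by 1.43 ± 0.18 (adjusted p = 0.000517), while in wild type it was at 388 and 265 in larvae and 10338 and 9601 in prepupae. ken therefore started higher and ended lower than in wild type. vri, a bZIP factor of the clock and of wing growth, rose by 1.18 ± 0.18 (adjusted p = 0.00173), against 3.10 ± 0.18 in wild type. Kr-h1, a zinc finger factor of the juvenile hormone response, changed by -0.69 ± 0.13 (log2, adjusted p = 0.00428), a call that ended at 0.0692 without replicate 2 at +6 h. The other gene that fell was dre4, which encodes a chromatin factor, a call that ended at 0.0586 and 0.0541 without replicates 1 and 2 at +6 h. Without replicate 1 at -6 h 8 of these genes rose. The count of lower genes was 1 without replicate 1 at +6 h, 0 without replicate 2 at +6 h and 3 without replicate 2 at -6 h.

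Of 10 ecdysone-inducible disc genes, 4 rose and the other 6 were not called, with a median of 0.24 that was near 0 under quantile normalization (-0.0042). ImpL1 was at 585 and 1114 normalized counts in larvae and 8691 and 9798 in prepupae and rose by 3.51 ± 0.31 (adjusted p = 0.000651). In wild type it was at 65.8 and 91.0 in larvae and 65989 and 65088 in prepupae, so the EcR-RNAi wings held more of it in the larva and far less in the prepupa. ImpL3, which encodes lactate dehydrogenase, was at 195 and 272 in larvae and 699 and 641 in prepupae and rose by 1.54 ± 0.14 (adjusted p = 3.53e-05). The other increases were ImpE1 and ImpE3. The call of ImpE3 ended at 0.0642 without replicate 1 at -6 h and 0.134 without replicate 2 at +6 h.

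**Figure D3:**
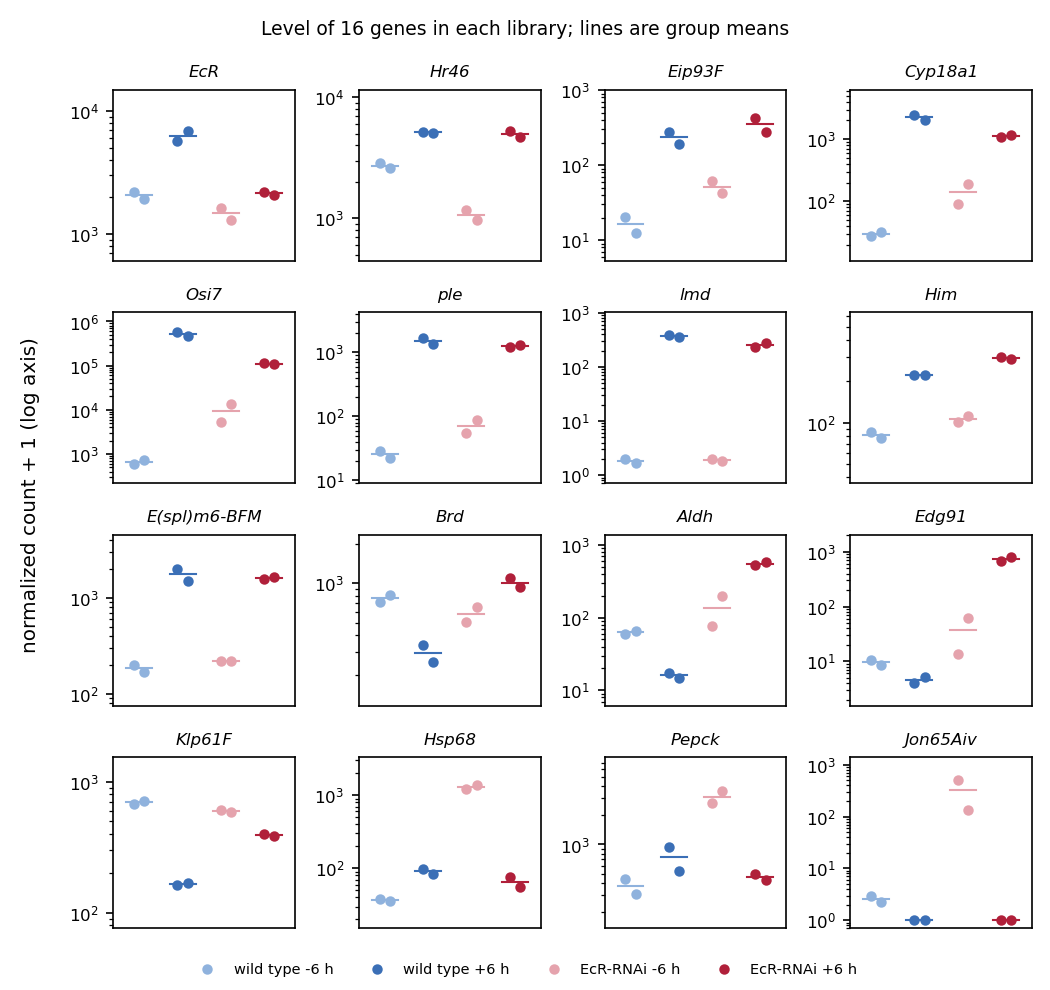
Normalized count + 1 on log axes in each of the 8 libraries (points) with the mean of each group (lines) for 16 genes. Hr46 reaches its wild-type prepupal level in EcR-RNAi (5287 and 4675 against 5197 and 5037), Osi7 and Cyp18a1 start above and end below wild type, and Brd, Aldh and Hsp68 move opposite to wild type.

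Genes of the new cuticle were among the largest increases. The Osiris genes encode small transmembrane proteins of cuticle-secreting cells, and 10 of 13 rose, with a median log2 fold change of 2.40, while all 13 rose in wild type with a median of 6.57. For 12 of the 13 the response was smaller than in wild type by the interaction. Osi7 was at 5161 and 13763 normalized counts in larvae and 112092 and 109756 in prepupae. In wild type it was at 602 and 739 in larvae and 571450.0 and 457986 in prepupae. The larval EcR-RNAi libraries lay above both wild-type ones and differed between themselves, and the prepupal libraries lay below wild type. Osi7 rose by 3.72 ± 0.45 (adjusted p = 0.00371), a value that was 3.01 without replicate 1 and 4.43 without replicate 2 at -6 h. Osi9 was at 33.1 and 31.1 in larvae and 221 and 229.8 in prepupae, close to wild type in the larva, and rose by 2.77 ± 0.15 (adjusted p = 7.44e-07). Osi24 was at 161 and 188 in larvae and 528 and 524 in prepupae and rose by 1.59 ± 0.12 (adjusted p = 7.22e-06). Without replicate 1 or without replicate 2 at +6 h, 4 of the 13 were called.

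Of 35 cuticle proteins with a chitin-binding RR domain, 17 rose and 3 fell, with a median of 3.67. This was the same count as in wild type, where 17 rose and 3 fell with a median of 1.85, and the interaction called 4 members above 0 and 5 below. Cpr35B was at 28.3 and 43.4 in larvae and 242 and 254.5 in prepupae and rose by 2.79 ± 0.24 (adjusted p = 1.89e-05). Cpr78E was at 226 and 342 in larvae and 750.4 and 718 in prepupae and rose by 1.40 ± 0.17 (adjusted p = 0.000206), and all 4 libraries lay above those of wild type at the same stage (91.0 and 94.8 in larvae and 476 and 475 in prepupae). Cpr64Aa was the strongest decrease in this group, from 80.9 and 53.2 to 6.15 and 3.95, with a log2 fold change of -3.49 ± 0.40 (adjusted p = 0.000132). Many members were near 0 in one stage and varied between the larval replicates, and the number that rose was 8 when either one of the prepupal libraries was left out, 25 without replicate 2 at -6 h and 27 by edgeR. The number that fell was 1 without replicate 1 or 2 at +6 h and without replicate 2 at -6 h, and 2 without replicate 1 at -6 h.

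Chitin is the polysaccharide of the cuticle. Of 17 genes of chitin synthesis and assembly 9 rose and the other 8 were not called, with a median of 1.31 (15 rose in wild type, median 1.85). kkv, the chitin synthase, was at 1917 and 2519 normalized counts in larvae and 4199 and 4676 in prepupae and rose by 1.01 ± 0.14 (adjusted p = 0.000597). mmy, which makes the UDP-sugar that chitin is built from, was at 348 and 549.5 in larvae and 1331 and 1578 in prepupae and rose by 1.73 ± 0.20 (adjusted p = 0.000447). obst-A, a chitin-binding matrix protein, was at 4241 and 6004 in larvae and 22557 and 23096 in prepupae. Its rise of 2.18 ± 0.17 (adjusted p = 1.35e-05) was smaller than that of 3.20 ± 0.17 in wild type (interaction -1.02 ± 0.25, adjusted p = 0.0109, or 0.148 under quantile normalization), although both prepupal libraries lay above those of wild type (1469 and 1523 in larvae and 15693 and 12025 in prepupae). Of 8 chitinases and related Idgf growth factors 3 rose and 1 fell. Cht7 rose by 1.01 ± 0.13 (adjusted p = 0.000302), and Idgf4 changed by -2.45 ± 0.12 (adjusted p = 4.15e-07), from 919 and 1002 to 164 and 186. Of the synthesis genes 6 were called without replicate 1 and 5 without replicate 2 at +6 h.

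Zona pellucida domain proteins form the apical matrix that shapes wing cells. Of 12 tested, 8 rose and 1 fell, with a median of 1.42 against 3.13 in wild type, and 8 members responded less far by the interaction. ect was at 699.8 and 1328 normalized counts in larvae and 13875 and 12192 in prepupae and rose by 3.75 ± 0.27 (adjusted p = 0.000104), whereas wild type was at 144 and 158 in larvae and 111350.0 and 106518 in prepupae. nyo was at 1519.6 and 1762 in larvae and 4755 and 4350.3 in prepupae and rose by 1.47 ± 0.13 (adjusted p = 2.05e-05). dp, which encodes the giant matrix protein dumpy, was at 15738 and 14143 in larvae and 32141 and 29087 in prepupae and rose by 1.04 ± 0.14 (adjusted p = 0.000491). The prepupal libraries lay above the larval ones for all 3 and below those of wild type. dy, a relative needed for cell shape in the wing and counted with the adhesion genes here, was at 618 and 1149.8 in larvae and 6878 and 6825 in prepupae and rose by 3.02 ± 0.26 (adjusted p = 0.000268), against 8.01 ± 0.26 in wild type. The number of the 12 that fell was 0 without replicate 1 or 2 at +6 h.

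Of 14 genes of tanning and pigment, 6 rose and the other 8 were not called, with a median of 0.85. ple, the tyrosine hydroxylase that starts catecholamine synthesis, was at 54.6 and 86.0 normalized counts in larvae and 1213 and 1294 in prepupae and rose by 4.17 ± 0.22 (adjusted p = 3.08e-06). In wild type it was at 28.1 and 21.1 in larvae and 1703 and 1351 in prepupae, so the prepupal levels were near each other. Both enzymes that act on dopamine lay above wild type in the prepupa. The gene e, which joins beta-alanine to dopamine, was at 15.6 and 11.5 in larvae and 116 and 142 in prepupae against 10.6 and 2.56 in larvae and 58.2 and 48.3 in prepupae in wild type, and Dat, which acetylates dopamine, was at 8.77 and 17.2 in larvae and 109 and 89.8 in prepupae against 3.87 and 5.12 in larvae and 55.2 and 28.3 in prepupae. e rose by 3.17 ± 0.48 (adjusted p = 0.00147) and Dat by 2.91 ± 0.42 (adjusted p = 0.000746), and for neither was the interaction called (0.10 ± 0.69, adjusted p = 0.932, and 0.02 ± 0.60, adjusted p = 0.99). Dat was named for its small interaction, so that value describes the choice and is not a test. laccase2, the oxidase that cross-links cuticle, rose by 1.37 ± 0.11 (adjusted p = 1.09e-05) against 3.10 ± 0.11 in wild type. amd rose by 1.29 ± 0.18 (adjusted p = 0.000648) against 4.97 ± 0.18. Among 18 genes of wing hairs and planar polarity 3 rose and the other 15 were not called, or 5 rose without replicate 1 at -6 h. The 3 of 18 were 16.7%, beside 12.1% of all genes. f, which bundles the actin of hairs and bristles, rose by 1.298 ± 0.13 (adjusted p = 4.96e-05), against 4.55 ± 0.13 in wild type.

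**Figure D4:**
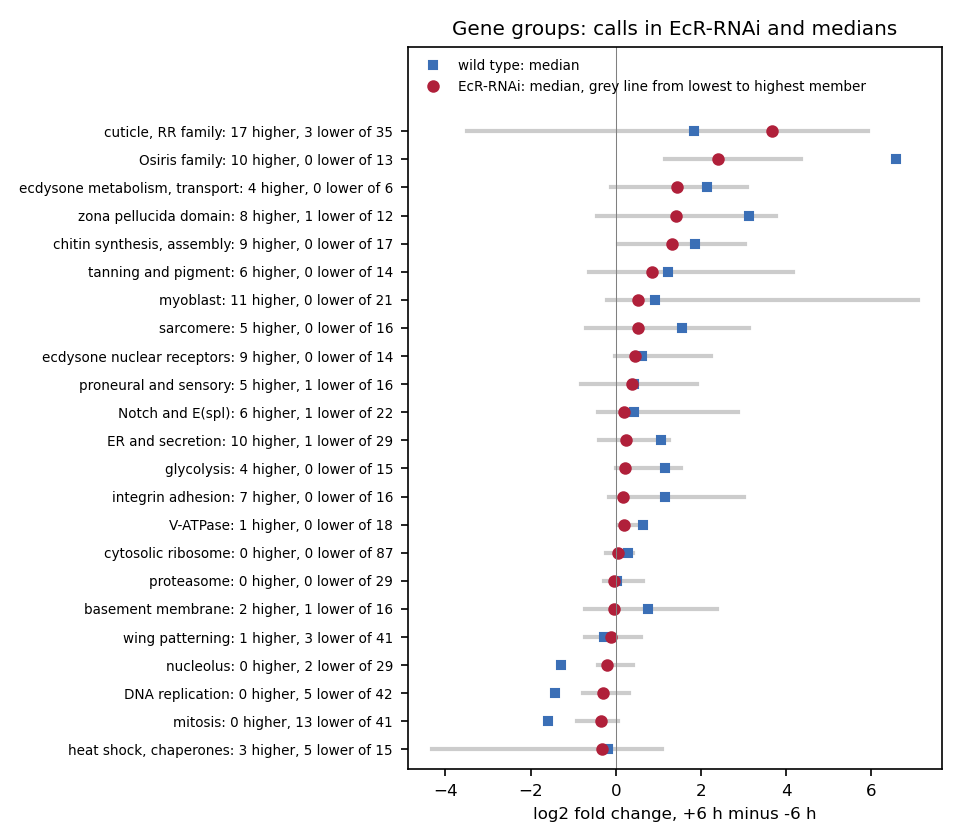
Median log2 fold change from -6 h to +6 h for groups of genes in EcR-RNAi (circles, with a grey line from the lowest to the highest member) and wild type (squares), with the number of members called in EcR-RNAi beside each name. Cuticle and Osiris genes have EcR-RNAi medians of 3.67 and 2.40, while the cell cycle groups lie at -0.29 and -0.35 against -1.44 and -1.58 in wild type.

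Genes of the adult muscle precursors, which sit on the wing disc, rose in EcR-RNAi as well. Of 21 myoblast genes 11 rose and the other 10 were not called, with a median of 0.52 (17 rose and 1 fell in wild type, median 0.91), and 6 responded less far. lmd, a zinc finger activator of muscle fusion genes, was at 0.975 and 0.819 normalized counts in larvae and 236 and 280.2 in prepupae and at 0.968 and 0.641 in larvae and 388 and 350.3 in prepupae in wild type. It was near 0 in all larval libraries and high in all prepupal ones, and its ratio of prepupal to larval reads was 293 (95% Clopper-Pearson interval 80.5 to 2420, counting error only) on 2 larval reads. sing, a membrane protein of myoblast fusion, was at 2.92 and 1.64 in larvae and 44.3 and 63.1 in prepupae and rose by 4.07 ± 0.51 (adjusted p = 0.000268). kirre and hbs, immunoglobulin receptors through which founder and fusing cells meet, rose by 1.25 ± 0.14 (adjusted p = 0.000142) and 1.01 ± 0.13 (adjusted p = 0.000297), and for hbs the interaction was -0.06 ± 0.18 (adjusted p = 0.837). Him, an inhibitor of Mef2, was at 99.4 and 111 in larvae and 299 and 289 in prepupae, with both prepupal libraries above the wild-type ones (84.2 and 75.6 in larvae and 221 and 223 in prepupae). It rose by 1.48 ± 0.14 (adjusted p = 3.64e-05), with an interaction of 0.01 ± 0.20 (adjusted p = 0.971). Him was named for its small interaction, so that value describes the choice and is not a test. Of 16 sarcomere genes 5 rose and the other 11 were not called. sls, a titin-like protein, rose by 0.67 ± 0.11 (adjusted p = 0.00129), against 1.80 ± 0.11 in wild type. Without replicate 1 or without replicate 2 at +6 h, 6 myoblast genes were called, and 2 and 3 sarcomere genes.

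The summed level of 24 myoblast markers was 18251 and 18130 in larval and 24894 and 24575 in prepupal EcR-RNAi libraries, against 15559 and 14304, then 27605 and 26829, in wild type. That of 27 sarcomere genes was 12837 and 10582, then 13939 and 13547, against 11471 and 10523, then 18981 and 17869. The stages did not overlap in either sum. Whether the number of these cells on the wing differed between the stages was not tested.

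Of 22 Notch pathway genes 6 rose and 1 fell, with a median of 0.20. E(spl)m6-BFM, a Bearded family target of Notch, was at 218 and 218 normalized counts in larvae and 1568 and 1637 in prepupae and rose by 2.87 ± 0.14 (adjusted p = 4.94e-07). In wild type it was at 199 and 168 in larvae and 1999.8 and 1493 in prepupae. E(spl)m7-HLH, a repressor induced by Notch, was at 308 and 344 in larvae and 701 and 692 in prepupae, overlapping wild type at both stages (329 and 296 in larvae and 616 and 727 in prepupae), and rose by 1.10 ± 0.12 (adjusted p = 0.000101) with an interaction of -0.00 ± 0.17 (adjusted p = 0.995). E(spl)m7-HLH was named for its small interaction, so that value describes the choice and is not a test. Of 16 proneural and sensory organ genes 5 rose and 1 fell. pros, a homeodomain factor of sensory organ lineages, was at 45.8 and 49.96 in larvae and 199 and 151 in prepupae and rose by 1.84 ± 0.19 (adjusted p = 6.88e-05). Of 12 neuron and glia genes 4 rose and the other 8 were not called. futsch, a microtubule-binding protein of neurons, was at 308 and 263 in larvae and 1605 and 1334 in prepupae and rose by 2.36 ± 0.13 (adjusted p = 7.23e-07), and scrt, a neuronal zinc finger factor, rose by 2.10 ± 0.29 (adjusted p = 0.00053). The prepupal libraries lay above the larval ones for each of these genes. Without replicate 1 and without replicate 2 at +6 h, 3 Notch pathway genes rose and 0 fell. Of the proneural genes 1 and 3 rose, and none fell without replicate 2 at +6 h or without replicate 2 at -6 h. Of the neural genes 2 were called without replicate 1 at +6 h.

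Of 41 wing patterning genes 1 rose, 3 fell and 37 were not called, against 5 higher and 13 lower in wild type. The number that fell depended on the setting: it was 10 without replicate 2 at -6 h, 1 without replicate 1 at -6 h or replicate 2 at +6 h, 11 under upper-quartile scaling and 15 under quantile normalization. eyg, a Pax factor of the notum, changed by -0.73 ± 0.13 (adjusted p = 0.00324), from 543 and 536 to 319 and 333. The 3 others called were kn, which rose, and wg and tkv, which fell. Without replicate 1 at -6 h 3 rose. The call of kn ended at 0.203 without replicate 1 at +6 h, and that of wg at 0.0893 without replicate 1 at -6 h and 0.18 without replicate 2 at +6 h. That of tkv ended without any of the 4 EcR-RNAi libraries, at adjusted p between 0.0524 and 0.25. Of 15 cell death genes 4 rose and 1 fell. Only 1 rose without either library at +6 h or without replicate 2 at -6 h, and 0 fell without either library at +6 h or without replicate 1 at -6 h. rpr, an inhibitor of the caspase inhibitor Diap1, was at 288 and 222 normalized counts in larvae and 534 and 502 in prepupae and rose by 1.03 ± 0.18 (adjusted p = 0.00363). foxo, the factor held back by insulin signalling, was at 503 and 423 in larvae and 736 and 759.6 in prepupae and rose by 0.70 ± 0.12 (adjusted p = 0.00265), with an interaction of -0.03 ± 0.17 (adjusted p = 0.925). bnl, the FGF that attracts trachea, rose by 1.08 ± 0.18 (adjusted p = 0.00199) and was the 1 of 13 tracheal genes called, against 2 without replicate 1 at -6 h.

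Secretion, adhesion and glycolysis genes rose in smaller numbers than in wild type. Of 29 genes of the ER secretory pathway 26 rose in wild type with a median of 1.05, and in EcR-RNAi 10 rose and 1 fell with a median of 0.24, with 20 responding less far by the interaction. Trp1, which takes part in moving proteins into the ER, was at 409 and 442 normalized counts in larvae and 1041 and 984 in prepupae against 405 and 454 in larvae and 5000.3 and 5836 in prepupae in wild type, and rose by 1.25 ± 0.11 (adjusted p = 2.82e-05). SrpRbeta, a subunit of the receptor for the signal recognition particle, rose by 0.65 ± 0.10 (adjusted p = 0.00128). Of 16 integrin adhesion genes 15 rose in wild type, and in EcR-RNAi 7 rose and the other 9 were not called, with 12 responding less far. scb, an integrin alpha subunit, was at 413 and 408 in larvae and 775 and 897 in prepupae and rose by 1.02 ± 0.13 (adjusted p = 0.000244), and Fit2, a kindlin, was at 96.5 and 124 in larvae and 187 and 247 in prepupae and rose by 0.97 ± 0.17 (adjusted p = 0.00266), against 3.03 ± 0.17 in wild type. Of 15 glycolysis genes 12 rose in wild type, and in EcR-RNAi 4 rose and the other 11 were not called, with 10 responding less far. Under upper-quartile scaling 6 secretory, 4 integrin and 2 glycolysis genes rose in EcR-RNAi, and under quantile normalization 4, 5 and 1. Without replicate 1 and replicate 2 at +6 h the secretory genes that rose numbered 2 and 4, the integrin genes 3 and 3, and the glycolysis genes 1 and 1. Without replicate 1 at -6 h they numbered 6, 4 and 1.

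In the extracellular matrix, 2 of 16 basement membrane genes (12.5%) rose and 1 (6.25%) fell, beside 12.1% and 3.88% of all genes. In wild type 9 rose and 4 fell, and the interaction was below 0 for 8 of the 16 and above 0 for 2. wb, a laminin alpha chain, was at 868 and 886 normalized counts in larvae and 1647 and 1586 in prepupae against 792 and 903 in larvae and 6083 and 6030.4 in prepupae in wild type, and rose by 0.88 ± 0.10 (adjusted p = 0.000168). Of 13 matrix proteases and inhibitors 5 rose and 3 fell. Mmp2, a membrane-bound metalloprotease, was at 1450.4 and 1616 in larvae and 2969.7 and 3085 in prepupae and rose by 0.98 ± 0.11 (adjusted p = 8.79e-05). Ance, a peptidase, and tld, a protease that frees BMP ligands, changed by -0.97 ± 0.10 (adjusted p = 7.55e-05) and -1.10 ± 0.18 (adjusted p = 0.00189). Mmp2 ended below wild type (1303 and 1249 in larvae and 4633 and 4910.1 in prepupae), and Ance and tld ended above it (1542 and 1624 in larvae and 574 and 558 in prepupae for Ance, 159 and 151 in larvae and 25.4 and 24.1 in prepupae for tld). Of the basement membrane genes 1 rose without either library at +6 h, and 0 fell without those or without replicate 1 at -6 h. Of the matrix proteases 3 rose without replicate 1 at +6 h.

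Among immune genes 9 of 22 rose and the other 13 were not called, with a median of 0.46. PGRP-LC, the receptor that senses bacterial cell wall for the Imd pathway, was at 157 and 269 normalized counts in larvae and 551 and 618 in prepupae against 38.7 and 28.8 in larvae and 310.2 and 369 in prepupae in wild type, so it was higher in both stages, and it rose by 1.5 ± 0.25 (adjusted p = 0.00371). Of 38 detoxification genes 14 rose and 2 fell. Cyp6a17 was at 88.7 and 86.0 in larvae and 498 and 503 in prepupae and rose by 2.51 ± 0.16 (adjusted p = 2.73e-06), and Cyp301a1, a cytochrome P450 of the cuticle, was at 80.9 and 116 in larvae and 390.0 and 490.3 in prepupae and rose by 2.16 ± 0.18 (adjusted p = 1.69e-05). Of 21 lipid genes 6 rose and 1 fell. bmm, the triglyceride lipase, was at 34.1 and 43.4 in larvae and 176 and 174 in prepupae and rose by 2.15 ± 0.20 (adjusted p = 3.7e-05). Lpin, a phosphatidate phosphatase, rose by 0.86 ± 0.12 (adjusted p = 0.000574). Pdp1, a bZIP factor of the clock and of growth, was at 571 and 617 in larvae and 3735 and 3195 in prepupae against 348 and 313 in larvae and 16259.5 and 12294 in prepupae in wild type, and it rose by 2.54 ± 0.14 (adjusted p = 9.91e-07). Without replicate 1 and replicate 2 at +6 h, 9 and 7 of the detoxification genes rose, and 8 without replicate 1 at -6 h. The number of them that fell was 0 or 1 without any 1 of the 4 EcR-RNAi libraries. Of the lipid genes 3 rose without replicate 2 at +6 h or replicate 1 at -6 h, and 0 fell without either library at +6 h.

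Genes of cell division fell in far smaller numbers than in wild type. In wild type 40 of 42 DNA replication genes and 38 of 41 mitosis genes fell, with medians of -1.44 and -1.58. In EcR-RNAi 5 replication genes and 13 mitosis genes fell, the others were not called, and the medians were -0.29 and -0.35. The interaction called 32 of the 42 and 34 of the 41 as falling less far. Klp61F, a kinesin of the spindle, was at 612 and 590.5 normalized counts in larvae and 399.8 and 387 in prepupae in EcR-RNAi and at 673 and 714 in larvae and 163 and 169 in prepupae in wild type. The larval levels were close and the prepupal levels of EcR-RNAi lay well above wild type. Klp61F changed by -0.61 ± 0.10 (adjusted p = 0.00215), with an interaction of 1.45 ± 0.15 (adjusted p = 4.92e-05). Cks30A, a partner of the mitotic kinase Cdk1, was at 826 and 708 in larvae and 459 and 455 in prepupae and changed by -0.74 ± 0.13 (adjusted p = 0.0029). tum, needed for cytokinesis, was at 695 and 740.3 in larvae and 467 and 476 in prepupae and changed by -0.60 ± 0.11 (adjusted p = 0.00401). cher, which encodes filamin and belongs to no such group, changed by -0.82 ± 0.11 (adjusted p = 0.000406) against -2.57 ± 0.11 in wild type. The counts are scale-bound: upper-quartile scaling called 14 replication and 26 mitosis genes lower. Without replicate 1 or 2 at +6 h they were 0 and 2 for replication and 4 and 4 for mitosis, and without replicate 1 or 2 at -6 h 2 and 3 for replication and 5 and 7 for mitosis.

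Genes of ribosome production were mostly not called, as were 6530 of all 7775 genes. Of 29 nucleolar genes 26 fell in wild type with a median of -1.28. In EcR-RNAi the median of the 29 was -0.21, and 24 responded less far by the interaction. There 2 (6.9%) fell, against 3.88% of all genes, and the other 27 were not called. The 2 became 0 without replicate 1 at +6 h, without replicate 2 at -6 h and by DESeq2, 1 without the other 2 EcR-RNAi libraries, and 5 and 7 under upper-quartile scaling and quantile normalization. None of 87 cytosolic ribosomal protein genes was called by limma, at an unadjusted p under 0.05, by edgeR or by DESeq2, and their median of 0.06 turned to -0.08 under upper-quartile scaling. Without replicate 2 at -6 h 2 of them were called higher. None of 72 mitochondrial ribosomal protein genes was called by limma, 9 were lower at an unadjusted p under 0.05, and edgeR called 1 lower and DESeq2 none. None of 29 proteasome genes was called by limma, edgeR or DESeq2, with 1 higher and 2 lower at an unadjusted p under 0.05. In wild type the proteasome genes were also mostly not called, with 3 higher and 2 lower. In EcR-RNAi under upper-quartile scaling 1 cytosolic ribosomal, 8 mitochondrial ribosomal and 3 proteasome genes were called lower. Under quantile normalization these numbers were 5, 4 and 3.

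A smaller set fell from larval levels that were far above wild type. Hsp68, an inducible Hsp70 chaperone, was at 1208 and 1382 normalized counts in larvae and 75.04 and 54.3 in prepupae in EcR-RNAi and at 36.8 and 35.2 in larvae and 96.9 and 83.9 in prepupae in wild type. The larval EcR-RNAi libraries stood apart from all others, and the prepupal ones lay between the larval and the prepupal libraries of wild type. Hsp68 changed by -4.32 ± 0.18 in EcR-RNAi (adjusted p = 3.23e-07) and by 1.301 ± 0.18 in wild type. stv, a co-chaperone of Hsp70, was at 1397 and 1955 in larvae and 844 and 723 in prepupae against 521 and 413 in larvae and 1033 and 1173 in prepupae in wild type, and changed by -1.08 ± 0.18 (adjusted p = 0.00266). Of 15 heat shock and chaperone genes 3 rose and 5 fell, with a median of -0.31. The number that fell was 3 without replicate 1 at +6 h and 2 without replicate 2 at either stage, and 9 under quantile normalization, and 1 rose without replicate 2 at +6 h. Pepck, the key enzyme of gluconeogenesis, was at 2712 and 3537 in larvae and 491 and 426 in prepupae against 439 and 306 in larvae and 941 and 534 in prepupae in wild type, and changed by -2.76 ± 0.32 (adjusted p = 0.00274).

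Among the furthest decreases were digestive proteases, which belong to the gut. Jon65Aiv was at 509.8 and 135 normalized counts in larvae and 0 and 0 in prepupae, and at 1.94 and 1.28 in larvae and 0 and 0 in prepupae in wild type. It was present in the 2 larval EcR-RNAi libraries and at or near 0 in the other 6, at least 187-fold lower in the EcR-RNAi prepupa, taking a floor of 3 reads over the group. yip7 was at least 104-fold lower and Jon25Bi at least 47.7-fold lower by the same floor. For Jon65Aiii the ratio of larval to prepupal reads was 502 (95% Clopper-Pearson interval 89.8 to 19900, counting error only). Reads of the Jon65A genes may be shared between close copies. The sum over 33 digestive proteases was 1417 and 378 in the larval EcR-RNAi libraries and 4.92 and 12.8 in the prepupal ones, and lay between 10.6 and 17.9 in wild type. Of the 33 genes 23 had no read in the larval EcR-RNAi libraries. Only 4 of the 33 were tested, and these reached the minimum mean only through those libraries. Their decreases describe that selection and are not a test. Mucins, counted with the gut list, went the other way, from 358 and 361 to 3266 and 2668, as they did in wild type, and most of that was Mur89F, a mucin gene that was at 309 and 337 in larvae and 3221 and 2611 in prepupae.

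Some blood cell and fat body transcripts moved with the stage too. proPO-A1 and proPO45 encode prophenoloxidases of crystal cells, which are blood cells. proPO45 was at 365 and 178 in larvae and 8.61 and 5.92 in prepupae against 21.3 and 5.77 in larvae and 0 and 1.05 in prepupae in wild type, and proPO-A1 at 184 and 109.7 in larvae and 6.15 and 4.93 in prepupae against 2.90 and 4.48 in larvae and 0 and 1.05 in prepupae. The larval EcR-RNAi libraries were the highest of the 8 for both, and both genes reached the minimum mean only through them. The third prophenoloxidase gene, proPO59, was not called, at 9.75 and 9.83 in larvae and 20.9 and 14.8 in prepupae against 13.6 and 18.6 in larvae and 5.97 and 7.34 in prepupae in wild type. proPO-A1 changed by -4.46 ± 0.56 (adjusted p = 0.00029). Hml, a clotting protein of plasmatocytes, was at 129 and 104 in larvae and 4.92 and 5.92 in prepupae and changed by -4.19 ± 0.37 (adjusted p = 2.39e-05). Its interaction, -1.84 ± 0.53 (adjusted p = 0.0238), was not called by edgeR (0.0884) or DESeq2 (0.0501), nor without replicate 2 of wild type at either stage, replicate 1 of EcR-RNAi at -6 h or either EcR-RNAi library at +6 h (0.0504 to 0.0958). nimC4, a receptor for the uptake of dying cells, was at 0 and 0 in larvae and 34.4 and 82.9 in prepupae and thus at least 45.9-fold higher in the prepupa. Of 15 blood cell genes 6 rose and 2 fell, and 3 and 2 rose without replicates 1 and 2 at +6 h and 4 without either library at -6 h. The summed level of the list over 22 genes was 8777 and 8736, then 9095 and 9400, against 7992 and 6808, then 13882 and 13148, in wild type. The 6 larval serum proteins and receptors of the fat body summed to 1862 and 4641 in the larval and 743 and 878 in the prepupal EcR-RNAi libraries, against 214 to 581 in wild type. The whole fat body list of 19 genes summed to 4300 and 7376, then 3280 and 3768. Of its 12 genes tested 1 rose, 2 fell and 9 were not called. Among the 6 larval serum proteins and receptors only Lsp1alpha and Lsp1gamma were called. Both calls ended when either EcR-RNAi library at +6 h was left out. The log2 fold change ran from -2.80 to -1.80 for Lsp1alpha and from -2.08 to -1.64 for Lsp1gamma without 1 EcR-RNAi library. Of the 12 genes 5 fell by edgeR, 6 by DESeq2, 2 under upper-quartile scaling and 4 under quantile normalization. The part of other tissue in the decreases of the proteases, proPO45, proPO-A1 and Pepck was not tested.

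**Figure D5:**
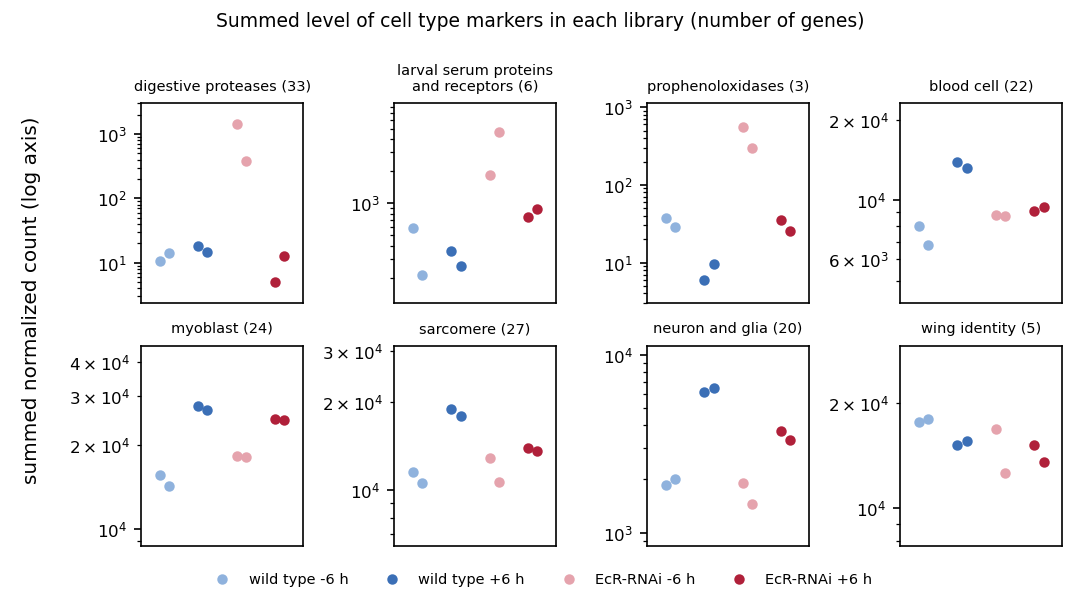
Summed normalized count of marker genes of other cell types in each library (points, log axes), by genotype and stage. Digestive proteases are at 1417 and 378 in the larval EcR-RNAi libraries and at 17.9 or below in all other libraries, while myoblast and wing identity sums differ far less between groups.

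In 15 genes the call in EcR-RNAi was opposite to that in wild type, 7 rising and 8 falling. Brd, a small inhibitor of Notch ligand activity, was at 502 and 652 normalized counts in larvae and 1085 and 928 in prepupae in EcR-RNAi and at 712 and 815 in larvae and 336 and 248 in prepupae in wild type. The stages did not overlap in either genotype, and the order was reversed between them. Brd rose by 0.81 ± 0.17 (adjusted p = 0.0116), a call that ended at 0.108 without replicate 1 at +6 h. Aldh, an aldehyde dehydrogenase, was at 76.0 and 195 in larvae and 534 and 573 in prepupae against 59.0 and 65.3 in larvae and 16.4 and 13.6 in prepupae in wild type, and rose by 2.17 ± 0.38 (adjusted p = 0.00738). Leaving out replicate 1 at -6 h gave 1.5 and leaving out replicate 2 gave 2.85. Its call ended at 0.0526 without replicate 2 at +6 h and when the 4 EcR-RNAi libraries were fitted alone. Smaller opposite increases were those of the receptor gene Hr39, the kinase gene Pdk1 and the gene Oscillin, between 0.41 and 0.44. The Hr39 call was kept in 7 of 19 alternatives. The calls of Pdk1 and Oscillin also ended without either library at +6 h, at 0.174 and 0.162 for Pdk1 and 0.162 and 0.104 for Oscillin, without replicate 2 at -6 h (0.139 and 0.0863) and, for Oscillin, without replicate 1 at -6 h (0.0711). On the falling side tey, a gene chosen by the same rule, kept its call in 8 of 19 alternatives, and it ended without any 1 of the 4 EcR-RNAi libraries, at adjusted p between 0.056 and 0.262. Those of Hsp26 and GstT4 ended without replicate 2 at -6 h (0.0651 and 0.178) and without either library at +6 h (0.112 and 0.0702 for Hsp26, 0.0991 and 0.139 for GstT4). That of Socs36E ended without either library at +6 h (0.147 and 0.0616).

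Some genes rose in EcR-RNAi that were not called in wild type, with a called interaction: 22 of the 70. Edg91, an ecdysone-dependent cuticle gene, was at 12.7 and 59.8 normalized counts in larvae and 682 and 788 in prepupae and at 9.68 and 7.69 in larvae and 2.98 and 4.20 in prepupae in wild type. The prepupal EcR-RNAi libraries stood far above the other 6, and the rise was 4.67 ± 0.61 (adjusted p = 0.00151), or 3.59 without replicate 1 and 5.75 without replicate 2 at -6 h. The call ended when the 4 EcR-RNAi libraries were fitted alone. Cpr62Bc, a cuticle protein gene, rose from 2 reads to 81, a ratio of 49.8 (95% Clopper-Pearson interval 13.3 to 418, counting error only). rk, the receptor for the tanning hormone bursicon, and Ih, a cation channel, were chosen after their values were seen. rk was at 50.7 and 52.4 in larvae and 125 and 143 in prepupae against 66.8 and 78.8 in larvae and 71.6 and 53.5 in prepupae in wild type, and rose by 1.36 ± 0.20 (adjusted p = 0.000946; interaction 1.59 ± 0.29, adjusted p = 0.00219). Ih was at 4.87 and 4.09 in larvae and 111 and 104 in prepupae against 0.968 and 1.28 in larvae and 11.9 and 2.10 in prepupae, and rose by 4.30 ± 0.64 (adjusted p = 0.00093; interaction 2.73 ± 0.91, adjusted p = 0.0469). The interaction of Ih was not called by edgeR (0.252) or DESeq2 (0.239), nor when any 1 library other than replicate 1 of wild type at +6 h was left out (0.0516 to 0.152). In both genes the 2 prepupal EcR-RNAi libraries were the highest of all 8. Cpr62Bc and Ih reached the minimum mean only through those libraries.

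Among the smallest adjusted p-values were further genes of no fixed group. spir, a nucleator of actin, was at 157 and 180.2 normalized counts in larvae and 908 and 883 in prepupae against 68.7 and 60.2 in larvae and 5795 and 5327 in prepupae in wild type, and rose by 2.41 ± 0.12 (adjusted p = 4.55e-07). Glut4EF, a transcription factor gene, was at 791 and 840.2 in larvae and 4455 and 3714 in prepupae against 522 and 471 in larvae and 18726 and 19168 in prepupae, and rose by 2.32 ± 0.12 (adjusted p = 5.9e-07). tx, which encodes a bHLH factor and was chosen after its values were seen, was at 57.5 and 86.0 in larvae and 506 and 477 in prepupae in EcR-RNAi and at 1.94 and 3.84 in larvae and 3440.4 and 3479 in prepupae in wild type, and rose by 2.79 ± 0.25 (adjusted p = 5.43e-05). In each of them the larval EcR-RNAi libraries lay above and the prepupal ones below those of wild type. ana changed by -1.98 ± 0.23 (adjusted p = 0.000946) with an interaction that was not called (-0.30 ± 0.32, adjusted p = 0.551). Nplp4, a neuropeptide-like precursor gene, went from 155 reads to 3, a ratio of 42.0 (95% Clopper-Pearson interval 14.1 to 206, counting error only).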

How the data were processed

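RNA was measured in 8 libraries of wings, 2 for each of EcR-RNAi and wild type at -6 h and at +6 h, grouped by their titles. The deposited table holds normalized counts, a signal. The deposited values show that the authors divided read counts by a size factor per library, since 100% of values gave back whole reads within 0.1 read. Per the submitters' processing notes, the genome build was dm3 and the tools, named without roles, were DESeq2 1.14.1, Subread 1.24.2, STAR 2.5.2b and SAMtools 1.3.1. Recovered depth lay between 6444939 and 10016236 reads per library. A second deposited table holds the authors' log2 fold change and adjusted p-value for their own comparisons and was used for a count of shared calls. Whether counting used strand is not stated in the labels or headers, which leaves antisense and overlapping genes uncertain. The same holds for close copies such as the Jon65A, Ccp84A, Lsp1 and Hsp70 genes. CUT&RUN peak lists were not used here.

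Genes with a mean of at least 10 were fitted on log2(normalized count + 1) in a model of 4 group means, using limma 3.58.1 (trend and robust options) under R 4.3.3. Fold changes on this scale understate changes of genes with low counts. Benjamini-Hochberg adjusted p-values under 0.05 over all 7775 genes were called. edgeR 4.0.16 with a quasi-likelihood test on the recovered reads called 962 genes higher and 336 lower, and DESeq2 1.42.0 was another alternative. The fit was tested on simulated counts in which some genes changed at +6 h in EcR-RNAi and none changed in wild type. That checked the EcR-RNAi stage comparison only, not the wild-type comparison or the interaction. Of the listed genes 3291 had no read and 4174 had reads but fell below the minimum.

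The members and gene lists were chosen with earlier results of these data known, so counts over a list are descriptions. Genes were named by rule: the smallest adjusted p, the largest changes, the responses most above, most like and opposite to wild type, and up to 5 of each list, plus EcR. Not every gene so chosen is given values. The groups by wild-type size, the levels set against wild type, and the digestive protease, mucin, larval serum protein and prophenoloxidase parts of marker lists were added after the data were seen. Promoter and protein sequences were not used here.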

Additional observations from a re-analysis of the deposited data

Results flagged for a closer look

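The interaction, a test of the difference between the genotypes' stage responses, was called for 584 of the genes higher at +6 h in EcR-RNAi and for 170 of those lower.

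Among the genes named for a response above that of wild type, or opposite to it, the interaction (EcR-RNAi response minus wild-type response, log2) was 5.752 for Edg91, 4.355 for Cpr62Bc, 4.157 for Aldh, 2.209 for Brd, 1.065 for Pdk1, 1.025 for Hr39 and 0.7982 for Oscillin. These 7 genes rose in EcR-RNAi. In wild type Aldh, Brd, Pdk1, Hr39 and Oscillin fell, and Edg91 and Cpr62Bc were not called.

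On the falling side the interaction was -8.759 for Jon65Aiii, -6.842 for yip7, -6.671 for Jon65Aiv, -5.619 for Hsp68, -5.36 for Jon25Bi, -3.707 for Pepck, -2.766 for proPO-A1 and -2.326 for stv. It was -0.9803 for Socs36E, a feedback inhibitor of JAK/STAT signalling, -1.043 for tey, -1.131 for Hsp26, a small heat shock chaperone, and -1.355 for GstT4, a glutathione transferase. Of these, Hsp68, Pepck, stv, Socs36E, tey, Hsp26 and GstT4 rose in wild type. Jon65Aiii, yip7, Jon65Aiv, Jon25Bi and proPO-A1 reached the minimum mean only through the larval EcR-RNAi libraries, where they are high. Cpr62Bc reached it only through the prepupal EcR-RNAi libraries. The interactions of these genes describe that selection and are not a test. The interaction was called in each gene named here as fitted. Across the alternatives its highest adjusted p was 0.99987 for Jon65Aiv and Jon25Bi, 0.209 for yip7, 0.485 for proPO-A1, 0.0916 for Cpr62Bc and 0.0543 for Jon65Aiii, so those calls ended in at least 1 alternative, and the cause was not tested. For the other genes named here it stayed below 0.05.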

How the results depend on the processing

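No call of a named gene reversed in any of 19 alternatives. The count of 943 higher genes ran from 506 to 967 when each library was left out, that of 866 higher in both genotypes from 489 to 832, and that of 584 higher with a called interaction from 319 to 620. The lowest values came without an EcR-RNAi library at +6 h, which leaves 1 sample in that group, assumed to vary like the others. The 302 lower genes ran from 96 to 318, the 256 lower in both genotypes from 77 to 262, and the 170 lower with a called interaction from 52 to 175. Upper-quartile scaling gave 874, 806 and 461 for these and quantile normalization 945, 818 and 415. DESeq2 gave 182, 145 and 100. Without trend and robust settings limma gave 110 for the last. Increases made up 75.7% of the calls as deposited, 46.9% with upper-quartile and 45.3% with quantile scaling. For each change beyond the scaling and the smaller samples the cause was not tested. A fit with the replicate number as a block, the replicate block, called 915 genes higher and 271 lower. Deviations of same-numbered EcR-RNAi libraries correlated across 7775 genes with r = 0.129, and those of other groups between -0.148 and 0.0486, so with 2 numbers a pairing was not established. Depth limits genes near the minimum mean, where few reads carry a value.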

Other observations

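Some genes called higher in EcR-RNAi lay beside each other on the chromosomes. Of 923 called higher and placed by the order of the reference annotation, among 7619 placed, 328 (35.5%) had a neighbour among the tested genes that was also higher, against 22.4% of all placed genes with a higher neighbour, and of 294 called lower 43 (14.6%) had a neighbour that was also lower, against 7.56% of all placed genes. There were 14 runs of at least 4 neighbours that all rose, 64 genes in all. They included 7 Osiris genes from Osi5 to Osi17, with log2 fold changes from 2.17 to 4.34, 6 genes from Edg84A to Ccp84Aa, and 6 genes from nimC3 to wb, from 0.82 to 5.77. Close copies in these runs may share reads. No test was made of these counts.

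Of the genes tested, 11.7% to 12.6% were called higher on each chromosome arm, and 3.55% to 4.7% were called lower on the arms other than chromosome 4, where 7 of 59 genes were higher and 0 were lower.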
